A study of Homo sapiens with 16 samples.

Results

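The phagocyte NADPH oxidase is the enzyme with which neutrophils and macrophages make superoxide. Its subunit genes CYBB, CYBA, NCF1, NCF4 and RAC2 were followed here in acute myeloid leukaemia cells treated with a retinoid and an inhibitor of chromatin enzymes. These 5 genes were taken from the estimated count table by symbol, each matched 1 row, and the table holds 60603 genes in all. Expression was measured by RNA sequencing in 16 libraries, 8 from SKNO-1 and 8 from U-937, both established human leukaemia lines. SKNO-1 carries the RUNX1-RUNX1T1 fusion and was grown with GM-CSF (10 ng/mL), a cytokine that the U-937 medium did not have, so line and medium cannot be told apart. Each line received 1 of 4 treatments for 24 h, with 2 libraries per treatment. These were the solvent DMSO, all-trans retinoic acid (ATRA) at 0.1 µM, Corin at 0.1 µM, and ATRA with Corin at 0.1 µM each, called "both agents" below. ATRA is the ligand of the retinoic acid receptors. Corin is a hybrid inhibitor of the CoREST complex, which holds the histone demethylase LSD1 and histone deacetylases. Each line is a single culture line, and the labels do not say whether the 2 libraries of a group came from separate cultures, so p-values measure the spread between these libraries, which may be technical.

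The oxidase has a membrane part and a cytosolic part. CYBB encodes gp91phox, the catalytic subunit that carries electrons from NADPH to oxygen, and CYBA encodes p22phox, its membrane partner, on which gp91phox depends for stability. NCF1 encodes p47phox, the organiser that is phosphorylated on activation and docks to p22phox. NCF4 encodes p40phox, which binds a phosphoinositide of the phagosome membrane. RAC2 is the Rac GTPase of blood cells that completes the active enzyme. Loss of CYBB, CYBA, NCF1 or NCF4 causes chronic granulomatous disease, and the subunits are known to rise as myeloid cells mature.

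NCF1 has 2 near-identical pseudogenes on the same chromosome, NCF1B and NCF1C, and the place where they differ from it shows how far the counts of NCF1 can be trusted. NCF1 lies at chr7:74774011-74789315 (hg38, plus strand). Its exon 2 begins with the doubled GT that both pseudogene copies in the reference genome hold only once. The reference sequence around that point follows, 5′ to 3′ on the strand of each gene, with the GT units at the start of the exon in capitals. It was read at chr7:74777247-74777290 (plus strand) for NCF1, at chr7:73223858-73223899 (plus strand) for NCF1B and at chr7:75168689-75168730 (minus strand) for NCF1C.
NCF1: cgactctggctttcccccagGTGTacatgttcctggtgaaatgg
NCF1B: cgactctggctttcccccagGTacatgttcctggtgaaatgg
NCF1C: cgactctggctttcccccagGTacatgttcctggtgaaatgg
Of the 1250 stretches of 100 bases in the main NCF1 transcript (1349 bases), 63.52% were found without a mismatch in a transcript of NCF1B or NCF1C. A read from such a stretch cannot be placed by its sequence, and the authors' software divides it by estimate. NCF1 values are therefore uncertain, and the sum with the pseudogenes is given for its main changes.

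The promoters of CYBB and NCF1, the members with the largest changes, are shown with that of CYBA for comparison. They are RefSeq sequences of GRCh38.p14, from 250 bases before to 50 after the gene start in that source, and the table used here held 3 of the 5 genes. For CYBB and CYBA this start differs from that of the gene positions given below, which are from GENCODE. Offsets here are counted from the start in the promoter source. The windows are chrX:37779809-37780108 (plus strand) for CYBB, chr7:74773761-74774060 (plus strand) for NCF1 and chr16:88651004-88651303 (minus strand) for CYBA. Capitals mark matches to GAGGAA, the core bound by PU.1, or to GAAA, any 2 bases and GAAA again, an interferon regulatory factor (IRF) pattern, on either strand.
CYBB: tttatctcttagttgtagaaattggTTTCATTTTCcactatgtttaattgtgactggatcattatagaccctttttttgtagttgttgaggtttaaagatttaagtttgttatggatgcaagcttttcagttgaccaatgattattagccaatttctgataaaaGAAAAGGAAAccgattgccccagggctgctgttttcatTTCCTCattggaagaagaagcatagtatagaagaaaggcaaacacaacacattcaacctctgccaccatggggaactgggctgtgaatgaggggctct
NCF1: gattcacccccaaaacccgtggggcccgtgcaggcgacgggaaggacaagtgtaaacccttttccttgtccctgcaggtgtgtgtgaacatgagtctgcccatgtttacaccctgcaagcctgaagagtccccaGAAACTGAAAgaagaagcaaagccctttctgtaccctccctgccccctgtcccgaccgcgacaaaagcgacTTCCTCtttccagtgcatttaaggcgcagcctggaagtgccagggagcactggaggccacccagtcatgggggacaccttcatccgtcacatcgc
CYBA: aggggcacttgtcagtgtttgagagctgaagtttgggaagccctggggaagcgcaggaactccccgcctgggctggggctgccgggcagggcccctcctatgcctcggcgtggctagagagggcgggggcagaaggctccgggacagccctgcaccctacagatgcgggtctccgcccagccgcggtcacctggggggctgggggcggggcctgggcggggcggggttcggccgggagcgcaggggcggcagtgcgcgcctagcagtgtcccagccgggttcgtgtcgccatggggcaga
The GAGGAA core stood on the reverse strand of CYBB and of NCF1, with offsets of -48 and -45 bases from the start, and 27.9% of all 35116 promoters in the table hold this core. The IRF pattern occurred 2 times in CYBB and 1 time in NCF1, against 3.57% of all promoters with at least 1 match. CYBA held neither. No match in the 3 windows was found for TTGCNNAA (a C/EBP pattern, in 10.5% of all promoters), TGTGGT (RUNX, 13.1%), AGGTCA (13.8%) or GGTTCA (8.62%), the last pair being half-sites of nuclear receptors. No marked match overlaps another, and a match is a description of the sequence, not a binding site.

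The libraries held 28.4 to 37.8 M estimated counts. Line markers fitted the labels: RUNX1T1 stood at 18.16 to 41.3 TPM (the length-scaled share of transcripts, expressed to a fixed sum) in SKNO-1 and at 1 count or fewer in U-937, and HOXA9 and HOXA10 were at 0 in SKNO-1. Of the myeloid markers, CD33, SPI1 and LYZ were present in both lines. MPO stood at 506 to 1045 TPM in SKNO-1 but at 0.03 to 0.15 TPM in U-937. CSF1R was low, at 0.06 to 2.42 TPM in SKNO-1 and 0.31 to 8.25 TPM in U-937. The 9 markers of T, B, erythroid, epithelial and fibroblast cells reported here stayed at or under 0.88 TPM in every library. The 2 SKNO-1 DMSO libraries stood apart from each other in a way that followed base composition. Across 9338 genes, the difference between them correlated with the GC content of the transcript at r = 0.80, a description over genes that share these libraries. In U-937 the same correlation for the DMSO pair was 0.58 across 9439 genes. The GC content of the longest transcript is 61.2% for CYBA, 64.0% for NCF1, 58.5% for NCF4, 57.5% for RAC2 and 40.9% for CYBB. For SKNO-1 changes against DMSO, values without 1 of those 2 libraries are given where the call changed. Such a fit holds a single DMSO library and takes its estimate of spread from the other groups. Its p-values, also for contrasts that use no DMSO library, do not cover the spread of the DMSO pair.

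In U-937, all 5 genes rose with ATRA and with both agents, CYBB and NCF1 by 3.62 or more on the log2 scale and CYBA, NCF4 and RAC2 by 0.80 to 1.46. In SKNO-1 no treatment gave a call against DMSO for CYBA, NCF4 or RAC2, NCF1 rose with both agents to no more than 1.95 CPM (counts scaled to library size), and CYBB did not exceed 0.443 CPM in any library. In these bulk libraries, a change in the number of cells that express a gene and a change in RNA per cell cannot be told apart. Levels below are in CPM, with library sizes scaled by the trimmed mean of M-values (TMM), means are given ± SD with n = 2, and changes are log2 fold changes ± SE. They were tested with edgeR's quasi-likelihood test on all genes of a line, and a gene was called where its Benjamini-Hochberg adjusted p was under 0.05. The plot of levels by library shows the 16 values of each gene.

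**Figure D1:**
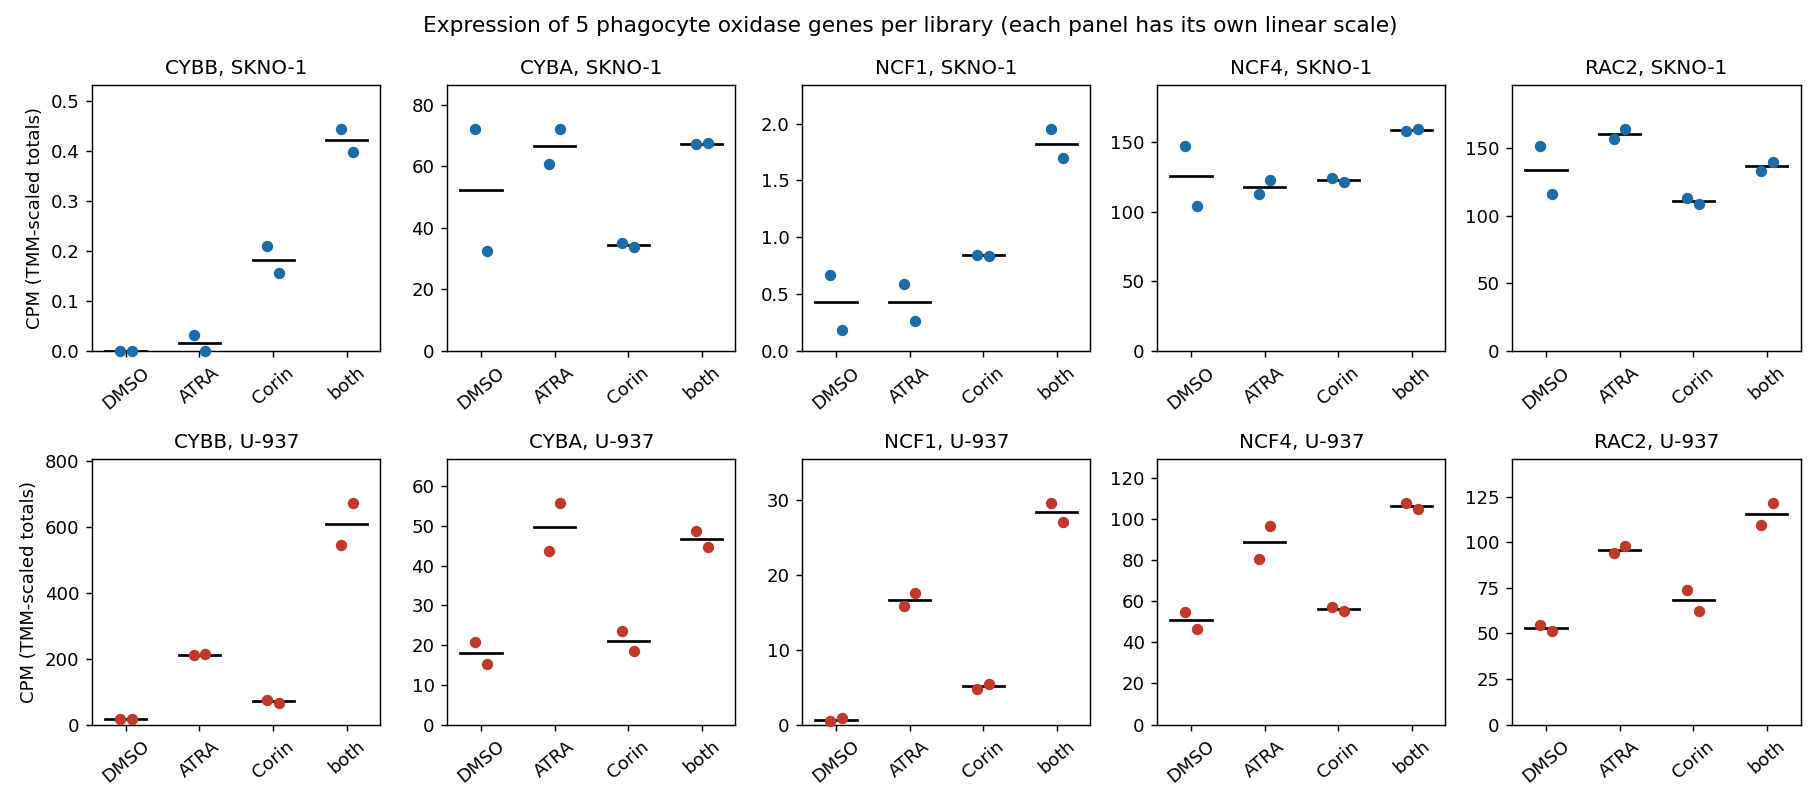
Level in CPM (linear axes from 0, a scale of its own in each panel) of the 5 genes, SKNO-1 in the upper row and U-937 in the lower row. Points are the 2 libraries of a treatment and bars their mean. In U-937 CYBB climbs from about 17.2 CPM in DMSO to 608 CPM with both agents, while in SKNO-1 it stays at or under 0.443 CPM, and the SKNO-1 DMSO points of CYBA lie far apart.

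CYBB (chrX:37780018-37813461, plus strand) was present in untreated U-937 at 16.8 and 17.6 CPM. ATRA brought it to 211 and 213 CPM, Corin to 74.8 and 65.8 CPM, and both agents to 544 and 673 CPM. The 4 groups did not overlap, and the order DMSO, Corin, ATRA, both agents held for every library. Against DMSO the log2 fold change was 3.62 ± 0.124 with ATRA (edgeR adjusted p = 1.15e-16), 2.03 ± 0.119 with Corin (8.76e-12) and 5.15 ± 0.131 with both agents (1.22e-19). Adding Corin to ATRA raised CYBB by a further 1.53 ± 0.110 (4.19e-11). The combination lay below the sum of the 2 single log2 changes (-0.50 ± 0.159, 0.0225). That shortfall did not pass the test when any 1 of 6 libraries was left out, with adjusted p from 0.0546 to 0.131. The 6 were replicate 1 of both agents, replicate 1 of Corin, and each ATRA and each DMSO library.

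In SKNO-1 CYBB was all but undetected. Its counts were 0 and 0 in DMSO, 1 and 0 with ATRA, 7 and 5 with Corin, and 14 and 13 with both agents. The libraries held 32.8 to 37.8 M counts, and the gene passed the low-count filter in this line only through the groups where it was higher. Its calls in this line are therefore left out of the counts below, and its levels are given as a description. Set against a floor of 3 counts over the DMSO group, the level was at least 4.19-fold higher with Corin and at least 9.64-fold higher with both agents. Both agents against ATRA gave 27 counts against 1, a ratio of 28.8 with a 95% interval of 4.75 to 1179 that covers counting error only. Between the lines, untreated U-937 held at least 395-fold more CYBB than untreated SKNO-1.

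CYBA (chr16:88643275-88651083, minus strand), the membrane partner, was expressed in both lines. In U-937 it read 20.7 and 15.2 CPM in DMSO, 43.7 and 55.8 CPM with ATRA, 23.4 and 18.5 CPM with Corin, and 48.8 and 44.6 CPM with both agents. The libraries with ATRA all stood above the libraries without it, and the Corin and DMSO libraries overlapped. CYBA rose by 1.46 ± 0.169 with ATRA (edgeR adjusted p = 2.1e-05) and by 1.38 ± 0.169 with both agents (1.39e-05). The change with Corin was 0.23 ± 0.171 (0.453), and both agents against ATRA gave -0.08 ± 0.160 (0.711). On the log2(TPM + 0.1) scale, that last difference was -0.48 ± 0.129 and passed the test (limma adjusted p = 0.0115), beside a median of -0.21 over all genes on that scale. In SKNO-1 CYBA read 72.1 and 32.5 CPM in the 2 DMSO libraries, 60.9 and 72.1 CPM with ATRA, 35.1 and 33.7 CPM with Corin, and 67.1 and 67.7 CPM with both agents. The lowest value of the line was in DMSO, and the higher DMSO library stood level with the highest ATRA library. In the reported fit no SKNO-1 contrast of CYBA passed. Without the low-count filter, changes against DMSO of 0.34 ± 0.098 with ATRA (edgeR adjusted p = 0.0122), -0.62 ± 0.099 with Corin (1.07e-08) and 0.39 ± 0.098 with both agents (0.000363) did. Both agents then exceeded Corin by 1.01 ± 0.0997 (8.45e-22). The SE moved more than the change, since ATRA gave 0.38 ± 0.311 in the reported fit. These p-values rest on that smaller estimate of spread, although the DMSO pair read 72.1 and 32.5 CPM. Without DMSO replicate 1 the change was 1.05 with ATRA (edgeR adjusted p = 5.99e-07) and 1.11 with both agents (6.64e-08). Without DMSO replicate 2 it was -0.14 (0.242) and -0.08 (0.434), and Corin then gave -1.11 (9.59e-08). Both agents exceeded Corin by 1.03 without either DMSO library. That contrast uses no DMSO library, and leaving 1 out changes the estimate of spread that the groups of the line share.

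The 2 membrane subunits were compared per transcript length in TPM. In U-937 CYBB reached 0.0844 to 0.111 of CYBA in DMSO, 0.313 to 0.382 with Corin and 0.378 to 0.495 with ATRA. With both agents the ratio was 1.34 to 1.58, so CYBB was the more abundant of the pair in those libraries only. In SKNO-1 the ratio did not exceed 0.000876 in any library.

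**Figure D2:**
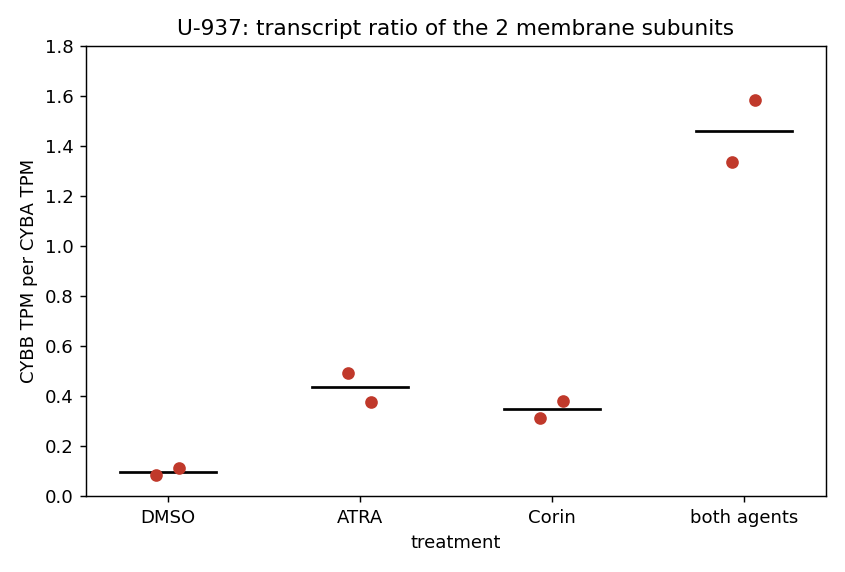
Ratio of CYBB TPM to CYBA TPM in U-937 by treatment (linear axis from 0). Points are libraries and bars the mean of 2. The ratio lies at 0.111 or less in DMSO and at 1.34 or more with both agents, and the ATRA and Corin ranges overlap near 0.38.

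NCF1, the cytosolic organiser, showed the largest fold changes against DMSO of the 5 genes in U-937. It read 0.441 and 0.852 CPM in DMSO, 15.8 and 17.6 CPM with ATRA, 4.79 and 5.42 CPM with Corin, and 29.6 and 27.1 CPM with both agents. The groups did not overlap. NCF1 rose by 4.68 ± 0.209 with ATRA (edgeR adjusted p = 1.15e-14), by 2.98 ± 0.228 with Corin (9.73e-10) and by 5.45 ± 0.206 with both agents (1.11e-16). Corin added to ATRA raised it by 0.77 ± 0.140 (6.63e-05), a call that did not pass on the log2(TPM + 0.1) scale (0.58, limma adjusted p = 0.0816). The combination stood below the sum of the single log2 changes (-2.21 ± 0.276, edgeR adjusted p = 1.43e-06).

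In SKNO-1 NCF1 read 0.667 and 0.186 CPM in DMSO, 0.592 and 0.266 CPM with ATRA, 0.843 and 0.836 CPM with Corin, and 1.95 and 1.69 CPM with both agents. Both agents gave the highest pair, and the DMSO and ATRA pairs overlapped. NCF1 rose by 2.14 ± 0.494 with both agents against DMSO (edgeR adjusted p = 0.00844) and by 2.10 ± 0.494 against ATRA (0.00962). The first did not pass without replicate 1 of both agents (adjusted p = 0.0503) or on the log2(TPM + 0.1) scale (0.89, limma adjusted p = 0.121). The second did not pass without that library (0.0564) or without ATRA replicate 2 (0.0714). Corin alone gave 0.97 ± 0.529 (0.184). It passed at 2.07 without DMSO replicate 1 (0.00335), at 1.32 with the GC trend removed (0.0232) and at 0.97 without the low-count filter (0.0488), and was 0.30 without DMSO replicate 2 (0.581). With both agents, the change against DMSO ran to 3.24 in the fit lacking DMSO replicate 1 (1.08e-05) and to 1.48 in the fit lacking the other (0.00395). Both agents against Corin, not called as reported, passed when either DMSO library was left out (adjusted p = 0.0043 and 0.00404), without the low-count filter (0.00598) and with all 16 libraries in 1 fit (0.0337).

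Summed with NCF1B and NCF1C, the U-937 changes were 4.83 with ATRA, 2.88 with Corin and 5.53 with both agents, close to those of NCF1 alone, and the departure from additivity was -2.18. In the U-937 libraries with ATRA, NCF1 took 41.8 to 44.6% of the sum, and with both agents 44.7 to 45.9%. In SKNO-1 the sum rose by 1.06 with Corin (edgeR adjusted p = 0.0111) and by 2.06 with both agents, and both agents exceeded Corin by 0.996 (0.0287). The first and the last of these were not called for NCF1 alone. The pseudogenes followed the gene in U-937: with both agents NCF1B changed by 6.06 ± 0.272 (2.52e-15) and NCF1C by 5.20 ± 0.256 (1.33e-14). NCF1B reached 18.0 ± 0.698 CPM and NCF1C 16.1 ± 1.63 CPM (SD, n = 2). How many of those reads arose from NCF1 cannot be told from the estimates.

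**Figure D3:**
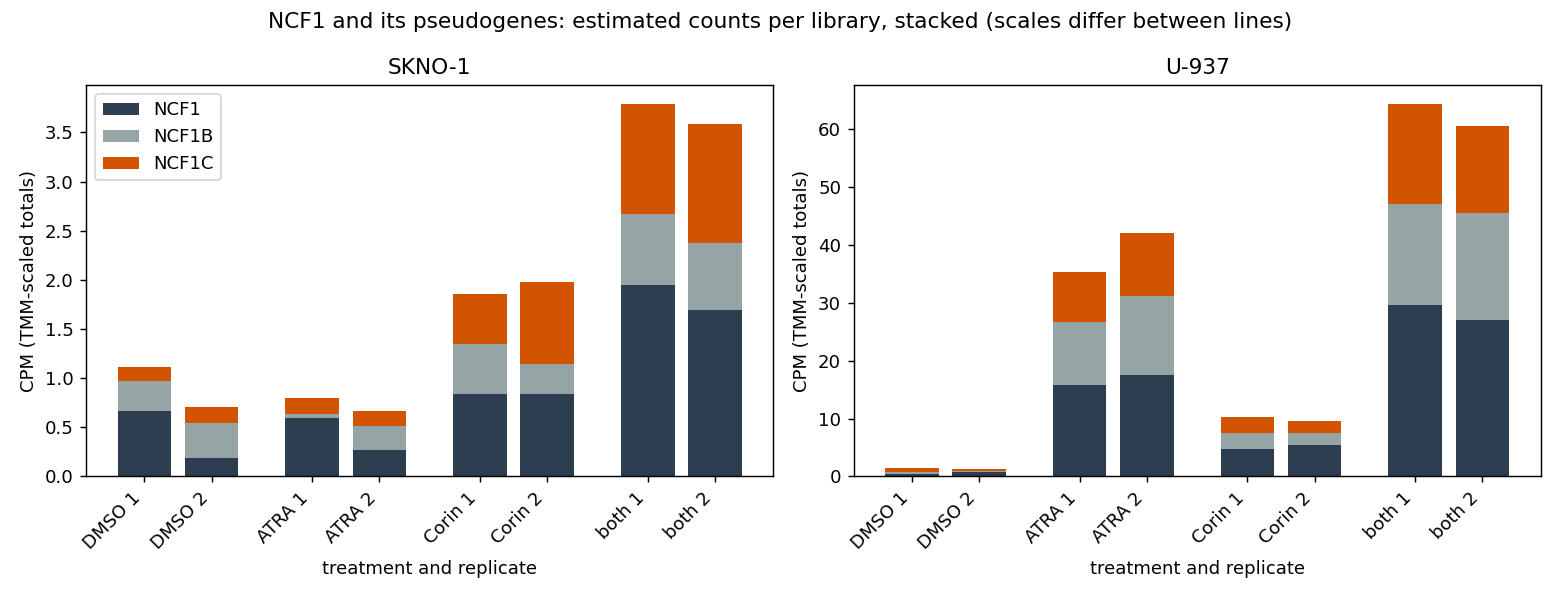
Level in CPM of NCF1, NCF1B and NCF1C, stacked, for each of the 16 libraries (linear axes from 0, different scales in the 2 lines). In U-937 the 3 rise together, and NCF1 holds 44.7 to 45.9% of the stack with both agents, while in SKNO-1 NCF1 does not exceed 1.95 CPM.

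NCF4 (chr22:36860988-36878017, plus strand), the phosphoinositide-binding subunit, changed far less. In U-937 it read 54.6 and 46.6 CPM in DMSO, 80.7 and 96.4 CPM with ATRA, 57.0 and 55.3 CPM with Corin, and 108 and 105 CPM with both agents. The groups with ATRA stood apart from those without it. NCF4 rose by 0.80 ± 0.107 with ATRA (edgeR adjusted p = 1.65e-06) and by 1.08 ± 0.107 with both agents (4.92e-09), and Corin gave 0.15 ± 0.107 (0.402). Both agents exceeded ATRA by 0.27 ± 0.105 (0.0366). This call did not pass in DESeq2 (0.0509), with library totals only (0.0881), without the low-count filter (0.0725), with all 16 libraries in 1 fit (0.111), without either library of both agents, without ATRA replicate 1 or on the log2(TPM + 0.1) scale (0.01, limma adjusted p = 0.948). In SKNO-1 NCF4 read 147 and 104 CPM in DMSO, 113 and 123 CPM with ATRA, 125 and 121 CPM with Corin, and 158 and 159 CPM with both agents. The DMSO pair enclosed the ATRA and Corin pairs, and both agents stood highest. Both agents gave 0.38 ± 0.149 against DMSO (0.068), which passed without either DMSO library (0.66 without replicate 1, 0.13 without replicate 2), with library totals only (0.0405), without the low-count filter (5.97e-05), with the GC trend removed (0.000194) and with all 16 libraries in 1 fit (0.0402). ATRA against DMSO, not called as reported, gave 0.19 without DMSO replicate 1 (0.00777) and -0.34 without DMSO replicate 2 (3.6e-05), and Corin gave 0.24 (0.000682) and -0.30 (5.34e-05). Both agents exceeded ATRA by 0.44 ± 0.149 (0.0438), a call that did not pass when any 1 of the 6 libraries other than DMSO was left out (adjusted p from 0.0833 to 0.174) or on the log2(TPM + 0.1) scale (0.12, limma adjusted p = 0.625).

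RAC2 (chr22:37225270-37259594, minus strand), the GTPase, moved like NCF4 in U-937. It read 54.9 and 51.4 CPM in DMSO, 94.1 and 97.6 CPM with ATRA, 73.7 and 62.5 CPM with Corin, and 110 and 122 CPM with both agents, and the groups did not overlap. RAC2 rose by 0.85 ± 0.103 with ATRA (edgeR adjusted p = 4.36e-07), by 0.36 ± 0.103 with Corin (0.0205) and by 1.13 ± 0.103 with both agents (1.19e-09). The Corin call did not pass without Corin replicate 1 (0.253), without DMSO replicate 1 (0.0678) or 2 (0.193), or on the log2(TPM + 0.1) scale (0.0683). Both agents exceeded ATRA by 0.28 ± 0.101 (0.0273), which did not pass without replicate 2 of both agents (0.185), without ATRA replicate 1 (0.187) or 2 (0.0918), without the low-count filter (0.0616), with all 16 libraries in 1 fit (0.0564) or on the log2(TPM + 0.1) scale (0.03, limma adjusted p = 0.813). In SKNO-1 RAC2 read 152 and 116 CPM in DMSO, 157 and 164 CPM with ATRA, 113 and 109 CPM with Corin, and 133 and 140 CPM with both agents. The ATRA pair stood highest and the Corin pair lowest. In the reported fit RAC2 passed in no SKNO-1 contrast, with 0.30 ± 0.122 for ATRA (0.248), -0.27 ± 0.123 for Corin (0.121) and 0.08 ± 0.122 for both agents (0.641). Without DMSO replicate 1 the ATRA change was 0.48 (1.99e-07), and without DMSO replicate 2 the Corin change was -0.49 (4.98e-08). The change with both agents was 0.29 without the first (3.17e-05) and -0.13 without the second (0.0267). With the GC trend removed, ATRA gave 0.26 (edgeR adjusted p = 0.00119) and both agents against ATRA -0.25 (0.000368). Limma also called the latter difference on log2(TPM + 0.1) (-0.49, limma adjusted p = 0.0455). It was -0.19 without either DMSO library, which that contrast does not use. Without the low-count filter ATRA (edgeR adjusted p = 0.0299), Corin (0.0044) and both agents against Corin (0.000744) passed. The ATRA change there was 0.26 ± 0.082, beside 0.30 ± 0.122 in the reported fit.

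**Figure D4:**
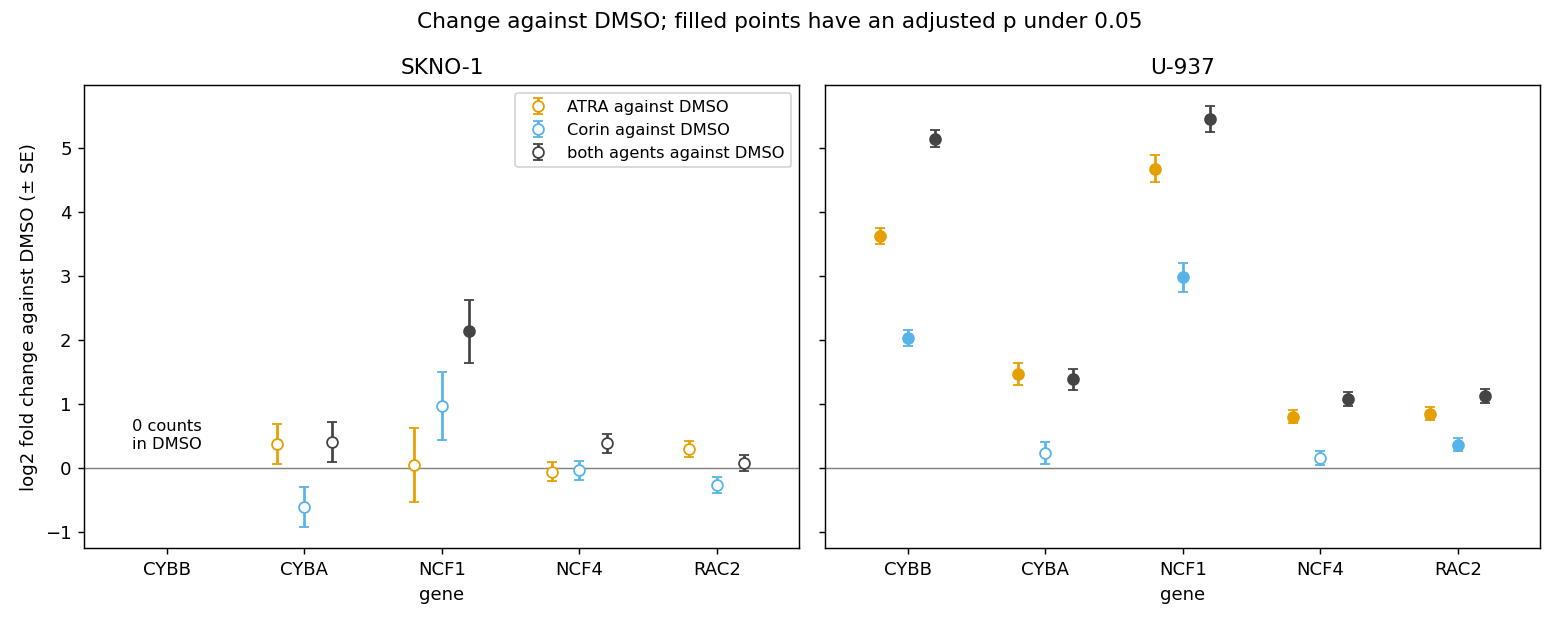
Log2 fold change against DMSO (± SE) of the 5 genes in SKNO-1 (left) and U-937 (right), for ATRA, Corin and both agents. Filled points have an adjusted p under 0.05, and CYBB has no point in SKNO-1, where DMSO held 0 counts. In U-937 CYBB and NCF1 reach 5.15 and 5.45 with both agents, and the other 3 genes lie between 1.08 and 1.38.

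The share of all genes called gives the background for these counts. In U-937, ATRA raised 5 of the 5 genes, where 21.7% of the 17717 genes tested were called higher, and both agents raised 5 of 5, where 33.1% were. Corin raised 3 of 5 (CYBB, NCF1 and RAC2) in that line, against 8.55% of all genes. Both agents exceeded ATRA in 4 of 5 (background 22.5%) and Corin in 5 of 5 (29.9%). The median change of the 5 genes with both agents was 1.38, beside 0.03 over all genes tested. On the log2(TPM + 0.1) scale the median over all genes was -0.41, and the 5 genes were still called higher, with changes from 0.55 for NCF4 to 5.05 for NCF1. The combination departed from the sum of the single log2 changes downward in 2 of 5 (NCF1 and CYBB), where 15.3% of all genes did so.

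CYBB, which passed the filter in SKNO-1 only through the groups where it was higher, is left out of the counts for this line. Of the other 4 genes, ATRA gave 0 calls by edgeR, where 6.76% of the 17479 genes tested were called. At an unadjusted p under 0.05 there was 1, and DESeq2 and limma on log2(TPM + 0.1) gave 0 each. Among these 4, Corin raised 0 by edgeR, where 20.5% of all genes were called higher. It gave 0 at an unadjusted p under 0.05 and 0 by DESeq2 and by limma. Both agents raised 1 of 4 (NCF1) against DMSO, where 24.7% were, and 2 of 4 (NCF1 and NCF4) against ATRA, where 23% were. Both agents against Corin gave 0 calls by edgeR (10.4% of all genes called in either direction), with 4 at an unadjusted p under 0.05 and 0 by DESeq2 and by limma. The combination departed from the sum of the single changes in 0 of 4 by edgeR (0.463% of all genes), with 0 at an unadjusted p under 0.05, by DESeq2 and by limma. The SKNO-1 counts against DMSO depended on which DMSO library was kept. A fit without 1 of them leaves a single library in that group, so its number of calls is not given here. Values from such fits are given with each gene above. In U-937 the 5 calls for ATRA and for both agents held in each leave-one-out fit and with the GC trend removed.

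Differences between the lines were tested directly, in a fit of all 16 libraries. In DMSO, U-937 held less CYBA (-1.54 ± 0.331, edgeR adjusted p = 0.00247), NCF4 (-1.31 ± 0.130, 8.48e-08) and RAC2 (-1.33 ± 0.112, 3.55e-09) than SKNO-1. With CYBB left out for the same reason as above, 3 of 4 were called lower, where 33.1% of the 19872 genes were, and 0 of 4 higher, where 31.7% were. NCF1 gave 0.61 ± 0.440 (0.233), but 1.75 without SKNO-1 DMSO replicate 1 (0.00535), and its sum with the pseudogenes was called higher in U-937 (0.56, 0.0325). CYBB held 0 counts in SKNO-1 DMSO, so no difference in its effects between the lines is given or counted. The ATRA effect was larger in U-937 for 3 of the other 4 genes (background 10.6%). These were NCF1 by 4.67 ± 0.590 (edgeR adjusted p = 1.53e-05), NCF4 by 0.90 ± 0.181 (0.00162) and RAC2 by 0.59 ± 0.155 (0.0103). The RAC2 difference did not pass in 6 leave-one-out fits, with adjusted p from 0.052 to 0.0954: without either ATRA library of either line, without SKNO-1 DMSO replicate 1 or without U-937 DMSO replicate 2. It did not pass on the log2(TPM + 0.1) scale either (0.30, limma adjusted p = 0.237). For CYBA the difference was 1.12 ± 0.453 (edgeR adjusted p = 0.129), and it passed with the GC trend removed (0.95, 0.00662) and without SKNO-1 DMSO replicate 2 (1.55, 0.000319), in a leave-one-out range of 0.37 to 1.55. Without SKNO-1 DMSO replicate 1 the NCF1 difference was 3.52 (0.00157). Summed with its pseudogenes, NCF1 differed by 5.16.

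With CYBB left out, the effect of both agents was larger in U-937 for 3 of 4 genes, against a background of 17.9%. The difference was 3.35 ± 0.536 for NCF1 (edgeR adjusted p = 5.87e-05), 0.73 ± 0.181 for NCF4 (0.00323) and 1.09 ± 0.155 for RAC2 (1.24e-05). For CYBA it passed only with the GC trend removed (1.23, 0.000598) and without SKNO-1 DMSO replicate 2 (1.49, 0.00019). The Corin effect was larger for NCF1 by 2.00 ± 0.549 (edgeR adjusted p = 0.0222) and for RAC2 by 0.63 ± 0.156 (0.0111), 2 of 4 against 5.28%. Neither Corin difference passed when the fit held only the groups of that contrast (edgeR adjusted p = 0.0926 and 0.0729). On the log2(TPM + 0.1) scale the RAC2 difference did not pass (0.51, limma adjusted p = 0.0688). Leaving out a single library ended the NCF1 call in 5 fits, to 0.89 without SKNO-1 DMSO replicate 1 (0.471) and otherwise between 1.62 and 2.03: those without either SKNO-1 Corin library, U-937 Corin replicate 2 or U-937 DMSO replicate 1. It ended the RAC2 call without SKNO-1 Corin replicate 2, U-937 Corin replicate 1 or U-937 DMSO replicate 2. The departure from additivity was lower in U-937 for 1 of 4, NCF1 (-3.32 ± 0.705, edgeR adjusted p = 0.00376), where 8.7% of all genes were lower. Without SKNO-1 DMSO replicate 1 it was -2.17 (0.0724). For NCF1 summed with its pseudogenes, the differences were 1.82 with Corin, 3.52 with both agents and -3.46 in additivity, each called by edgeR.

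Ordered by TPM over the 8 groups, the 5 genes differed in how the lines ranked. For CYBB the 4 U-937 groups stood above the 4 SKNO-1 groups, at 105 ± 7.64 TPM with both agents, 43.5 ± 3.04 with ATRA, 16.8 ± 0.332 with Corin and 4.16 ± 0.226 in DMSO (SD, n = 2), and no neighbours overlapped down to the 2 lowest, SKNO-1 with ATRA and with DMSO. NCF1 followed with 20.4 ± 2.76, 13.6 ± 0.127 and 4.51 ± 1.17 TPM in U-937 with both agents, ATRA and Corin, set apart from each other. The next level of NCF1 was 1.08 ± 0.127 TPM in SKNO-1 with both agents. The 4 lowest groups, U-937 with DMSO (0.53 ± 0.198 TPM) among them, overlapped with their neighbours. NCF4 and RAC2 ran the other way. All 4 SKNO-1 groups lay above all 4 U-937 groups in TPM. NCF4 ran from 80.3 ± 6.36 down to 39.4 ± 2.50 TPM and RAC2 from 97.7 ± 1.55 down to 40.6 ± 1.12 TPM. For RAC2 the nearest libraries of the lines were at 64.3 TPM (SKNO-1, both agents) and 64.16 TPM (U-937). In CPM this RAC2 order did not hold, with 116 ± 8.44 in U-937 with both agents and 111 ± 3.14 in SKNO-1 with Corin. CYBA was highest in SKNO-1 with ATRA (137 ± 10.2 TPM) and lowest in U-937 with DMSO (43.2 ± 5.99 TPM), with the lines interleaved. RAC2 made up 23.4 to 25.4% of the summed TPM of RAC1 and RAC2 in U-937 with DMSO and 37.6 to 39.4% with both agents. In SKNO-1 it made up 37.4 to 50.7% over the 8 libraries.

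Within U-937 the 5 genes moved together. Over its 8 libraries the correlation of log2 CPM was between 0.85 (CYBA with NCF1) and 0.98 (CYBB with RAC2) for the 10 pairs, a description over libraries that share their treatments. In SKNO-1, where CYBB held 14 counts or fewer in each library, pairs without CYBB ran from -0.09 (NCF1 with RAC2) to 0.90 (CYBA with RAC2). CYBB with RAC2 gave -0.39 there, a value that rests on those few counts. After the mean of each line was removed, the gene most like CYBB over the 16 libraries, among 9463 searched, was ITGB2 (r = 0.97). ITGB2 is the beta chain of the leukocyte integrins. The SKNO-1 part of the CYBB matches rests on those few counts, and within U-937 ITGB2 gave 0.98. PSMB10, a subunit of the immunoproteasome, was nearest to CYBA (0.98), AOC1, a diamine oxidase, to NCF1 (0.97), GRIPAP1 to NCF4 (0.98) and MED18, a Mediator subunit, to RAC2 (0.99). The next were ITGB7 and TMEM71 for CYBB, ARPC1B and ESRRA for CYBA, CHMP4B and TRIM38 for NCF1, TOM1 and PPCDC for NCF4, and PPP1R18 and LAIR1 for RAC2.

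Other genes of the complex were described beside the 5. CYBC1, the chaperone of the membrane pair, rose from 30.9 ± 5.26 to 61.2 ± 9.04 CPM in U-937 with both agents (1.00 ± 0.122, edgeR adjusted p = 2.21e-07) and gave 0.03 ± 0.170 (0.885) in SKNO-1. RAC1, the widely expressed Rac, fell by 0.474 with both agents in SKNO-1 (-0.47 ± 0.068, 0.000939) and gave 0.06 ± 0.100 (0.586) in U-937. Of the 4 genes RAC1, CYBC1, NCF1B and NCF1C, 3 rose and 0 fell in U-937 with both agents (median 3.10), and 1 rose and 1 fell in SKNO-1 (median 0.57). The pseudogenes, which share reads with NCF1, are 2 of the 3 that rose in U-937 and the 1 in SKNO-1. For these and the next counts, 33.1% of all genes rose and 32.2% fell with both agents in U-937, and 24.7% rose and 22% fell in SKNO-1, with medians of 0.03 and 0.05.

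The other NADPH oxidases and their organisers were nearly silent. Of 10 genes, 0 passed the low-count filter in SKNO-1 and 2 in U-937. Those 2, NOX5 and NOXA1, did not exceed 0.821 and 0.767 CPM in any library, and both were called higher with both agents in U-937.

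Of 22 genes that activate the complex or load and inhibit Rac, 21 were tested in each line. With both agents 10 rose and 4 fell in U-937 (median 0.23), and 8 rose and 7 fell in SKNO-1 (median -0.03). PIK3CG, the catalytic subunit of phosphoinositide 3-kinase gamma, rose from 193 ± 9.56 to 1955 ± 176 CPM in U-937 (3.35 ± 0.125, edgeR adjusted p = 8.92e-17) and from 65.8 ± 6.37 to 317 ± 7.67 CPM in SKNO-1 (2.32 ± 0.067, 4.86e-07). PREX1, a Rac exchange factor, rose by 1.48 in U-937 and VAV1, another, by 1.17. VAV2 fell by 1.30 there (-1.30 ± 0.131). In SKNO-1 the kinase genes PRKCB and PRKCD rose by 1.07 and 0.95, and PLA2G4A, cytosolic phospholipase A2, fell by 1.12.

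The 10 genes reported here for charge compensation, NADPH supply and peroxide handling were all tested in SKNO-1. In U-937 9 were, since MPO did not pass the low-count filter there. In U-937 with both agents 3 rose and 6 fell (median -0.97), and in SKNO-1 3 rose and 4 fell (median -0.30). PGD, an enzyme of the pentose phosphate pathway that makes NADPH, rose in U-937 from 234 ± 13.2 to 1663 ± 92.8 CPM (2.84 ± 0.120, edgeR adjusted p = 9.31e-16). SOD2, the mitochondrial superoxide dismutase, fell there from 152 ± 9.95 to 60.9 ± 1.40 CPM (-1.31 ± 0.096, 1.83e-11). SOD1, the cytosolic superoxide dismutase, fell by 1.65 in U-937 and by 0.823 in SKNO-1, and GPX1, a glutathione peroxidase, rose by 1.37 and 1.10. HVCN1, the voltage-gated proton channel that balances the charge the oxidase moves, rose by 1.59 in SKNO-1 and fell by 0.944 in U-937. MPO, the granule enzyme that uses the peroxide, stood at 506 to 1045 TPM in SKNO-1 and at 0.03 to 0.15 TPM in U-937.

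Of 12 transcription factor genes known to act on these promoters or in myeloid maturation, 12 were tested in U-937, where 7 rose and 3 fell with both agents (median 0.42). In SKNO-1 9 were tested, and 3 rose and 1 fell (median 0.15). IRF1 rose from 8.61 ± 0.220 to 148 ± 3.28 CPM in U-937 (4.11 ± 0.111, edgeR adjusted p = 3.1e-19) and by 2.17 ± 0.107 in SKNO-1 (5.73e-06). CEBPE, a factor of late granulocyte maturation, rose by 3.23 ± 0.162 in U-937 (2.06e-14) and gave 0.15 ± 0.261 in SKNO-1 (0.674). CEBPB rose by 2.61 in U-937 and by 2.06 in SKNO-1. SPI1, which encodes PU.1, rose by 1.00 ± 0.143 in U-937 (3.27e-06) and gave 0.55 ± 0.227 in SKNO-1 (0.0806). IRF8 was at 59.8 to 160 CPM in U-937, where it fell by 0.705, and did not exceed 1 count in any SKNO-1 library.

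The authors' deposited table of both agents against control lists a log2 fold change of 5.13 for CYBB and 5.43 for NCF1 in U-937. The authors' deposited table for SKNO-1 lists 2.08 for NCF1 (adjusted p = 0.0125) and 0.35 for CYBA (0.428).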

How the data were processed

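RNA from 16 libraries (2 lines, 4 treatments, 2 libraries each) was sequenced. Per the submitters' processing notes the tools include Trimmomatic, STAR, RSEM and DESeq2, with hg38. The authors deposited RSEM estimated counts and TPM per gene, as well as comparison tables whose headers, per the file headers, give DESeq2 log2 fold changes with adjusted p-values. Of the positive counts, 20.4% are not whole. The labels name paired-end reads, but gene length minus effective length is 99.68 bases, the offset of a single read. Per the labels a spike-in mix (ERCC) was added, but the table has 0 spike-in rows, so RNA per cell could not be estimated here.

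Counts were rounded, which moved no total by more than 42.03. They were filtered (filterByExpr), scaled by TMM and fitted with edgeR 4.0.16 (quasi-likelihood, robust; limma 3.58.1, R 4.3.3) per line without a replicate block, leaving 4 residual degrees of freedom, and over both lines for differences (8). P-values were adjusted over all genes. DESeq2 1.42.0, other scalings and filters, GC trend removal, leave-one-out fits and limma on log2(TPM + 0.1), the last chosen after seeing the data, were alternatives. Members and lists were chosen with earlier results of these data known. Some listed genes are not reported here, and list counts are without them. All members were named; of each other list, up to 4 genes with the largest change with both agents among those called at a mean of 5 CPM or more; NOX5, NOXA1, MPO and IRF8, values of a named gene in the other line and genes in it outside the 4 were added after their values were seen. The 3 genes most like each member were taken by Pearson r on log2 CPM with a prior count of 1. Positions came from a GENCODE annotation of hg38, and sequences from RefSeq and hg38.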

Additional observations from a re-analysis of the deposited data

Results flagged for a closer look

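The following 9 differences in effect between the lines passed the edgeR test of the difference itself, each as U-937 minus SKNO-1 on the log2 scale. With ATRA these were NCF1 (4.67), NCF4 (0.90) and RAC2 (0.59). With Corin they were NCF1 (2.00) and RAC2 (0.63). With both agents they were NCF1 (3.35), NCF4 (0.73) and RAC2 (1.09). The departure from additivity differed for NCF1 (-3.32). Neither Corin difference passed with only the groups of that contrast in the fit (edgeR adjusted p = 0.0926 for NCF1 and 0.0729 for RAC2). The RAC2 differences with ATRA and with Corin did not pass on log2(TPM + 0.1) (limma adjusted p = 0.237 and 0.0688). The lines differ in medium as well as in origin, and these cannot be told apart.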

How the results depend on the processing

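For the 5 genes, 1241 values were compared with an alternative: 1105 kept direction and call, 57 lost a call, 51 gained one and 28 changed sign, of which 0 had a call as reported and 4 had one in the alternative. Of 328 counts of called genes, 278 stayed within 1.5 times and 50 did not. Correlations of replicate differences between groups of a line ran from -0.49 to 0.42. In some groups these differences also followed GC content (r = 0.80 for the SKNO-1 DMSO pair and -0.42 for the SKNO-1 ATRA pair). Whether the replicate numbers pair the libraries cannot be told from these values. A replicate block ended 2 calls, both of NCF4 for both agents against ATRA, with an adjusted p of 0.0544 in SKNO-1 and of 0.055 in U-937. With 2 libraries a group, every test is limited, and in SKNO-1 the spread of the DMSO pair enters all contrasts.

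Counts of called genes moved as follows, in SKNO-1 unless stated. They include CYBB, which passed the SKNO-1 filter only through the groups where it was higher. They are therefore not the counts of the other 4 genes given above. With CYBB included, the reported fit called 0 members for ATRA, 1 for Corin (CYBB alone) and 2 for both agents (NCF1 and CYBB). Genes called in either direction over all genes tested are given beside them. Without the low-count filter the member counts were 2 for ATRA, 4 for Corin and 4 for both agents. Of the 30668 genes in that fit, 1963, 7850 and 9304 were called. The member counts were 4 for both agents against Corin (4238 genes) and 2 for the departure from additivity (1445 genes). In U-937 the member count was 2 for both agents against ATRA, where 8406 of 31504 genes were called. With the GC trend removed the member counts were 1 for ATRA and 3 for Corin, where 2462 and 8487 of 17479 genes were called. The difference in additivity between lines had 2 (3572 of 19872 genes). With NCF1 summed with its pseudogenes the member counts were 2 for Corin and 1 for both agents against Corin. Of 17477 genes, 6616 and 1822 were called. With all 16 libraries in 1 fit the member counts were 1 for both agents against Corin, and 2 in U-937 for both agents against ATRA. Of 19872 genes, 2620 and 8133 were called. On log2(TPM + 0.1) the member counts were 0 for Corin, where only CYBB was called as reported, and 1 for both agents (CYBB). Of 17479 genes, 2796 and 5969 were called on that scale. In U-937 the member count there was 2 for both agents against ATRA (7245 of 17717 genes). With only the groups used, the Corin difference between lines had 0 (1388 of 18733 genes). The cause was not tested.

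Leaving out 1 library at a time moved the count of called members in every SKNO-1 contrast and in every difference between the lines. In U-937 it did not move for ATRA, for both agents or for both agents against Corin. It moved there for Corin, for both agents against ATRA and for additivity. Each such fit leaves a single library in 1 group, and the number of all genes called moves too, so these counts are not given.

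The values that changed sign had no call as reported. With 1 library left out, they ran in SKNO-1 from -0.65 to 1.11 (NCF1), -0.34 to 0.19 (NCF4) and -0.14 to 1.05 (CYBA) with ATRA, from -1.11 to 0.083 (CYBA) and -0.30 to 0.24 (NCF4) with Corin, and from -0.079 to 1.11 (CYBA) and -0.13 to 0.29 (RAC2) with both agents. For CYBA with both agents against ATRA they ran from -0.055 to 0.19 in SKNO-1 and from -0.26 to 0.11 in U-937. For additivity in U-937 they ran from -0.20 to 0.037 (RAC2) and from -0.0086 to 0.26 (NCF4), and for the DMSO difference of NCF1 between lines from -0.015 to 1.75. On log2(TPM + 0.1), in SKNO-1, NCF1 with ATRA gave -0.58, NCF4 with Corin 0.038, RAC2 with both agents -0.18 and CYBA with both agents against ATRA -0.39, additivity of NCF4 in U-937 gave -0.10, and the DMSO difference of NCF1 -0.050. With the GC trend removed, NCF4 with Corin gave 0.20 in SKNO-1, CYBA against ATRA -0.11 in SKNO-1 and 0.074 in U-937, and additivity of RAC2 in U-937 0.13. In SKNO-1 with ATRA, NCF1 gave -0.0013 without the filter and -0.29 summed with its pseudogenes, and with library totals only NCF4 with Corin gave 0.020.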
